A study of Mus musculus with 4 samples.

Results

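The 39 genes described here encode the enzymes and transporters of glycolysis, the gate between pyruvate and the mitochondrion, 6 citrate cycle enzymes and 7 genes of the response to low oxygen. They were taken by symbol from a fixed list, and all 39 were found among the 23334 genes with a usable symbol. A total of 36 reached 1 FPKM (fragments scaled by transcript length and library size) in at least 1 library, and Slc16a3, Egln3 and Ankrd37 did not. The study sorted hippocampal cells of C57BL/6 mice that carry the reporter Vegfr3::YFP, in which yellow fluorescent protein (YFP) reports the gene of the VEGF-C receptor (symbol Flt4). Sorted cells were kept in culture for 18 h, and RNA was sequenced from 4 groups: YFP-positive cells (YFP+, labelled neural stem cells of the subgranular zone), YFP+ cells given VEGF-C at 50 ng/ml, YFP-negative cells (YFP-, labelled neurons of that zone), and YFP- cells given the same dose. All 4 groups share the strain, the reporter and the culture time. Material from 2 sets of 16 mice was combined within each condition, so each group is 1 library of pooled animals and no difference below has a replicate check or a p-value.

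Glycolysis splits glucose into pyruvate in the cytosol and yields ATP without oxygen. Lactate dehydrogenase turns pyruvate into lactate and back, and pyruvate dehydrogenase commits it to the citrate cycle in mitochondria. When oxygen is short, the transcription factor HIF-1 escapes the prolyl hydroxylases that mark it for destruction and raises many genes of glucose uptake, glycolysis and acid export. In the brain, astrocytes are known for strong glycolysis and lactate export, neurons for oxidative use of lactate and glucose, and neural stem cells for a glycolytic state that gives way to oxidative metabolism as they differentiate. Several steps have isozymes from separate genes, among them aldolase C, a protein of astrocytes, and gamma enolase, a protein of neurons.

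The libraries differed in how many genes they detected, and this touches every comparison below. The tables imply 8390511 to 60326311 fragments per library, with 9669 genes above 0 in the YFP+ library and 9556 in the YFP- library with VEGF-C, against 13528 and 13132 in the other libraries. The first 2 are called the gene-poor libraries. Members resting on fewer than 10 fragments, those listed at 0 included, numbered 10 in the YFP+ library, 4 with VEGF-C, 6 in the YFP- library and 14 with VEGF-C. Eno3 is among the 4, as it lay just under 10 fragments before rounding. A listed 0 may also stand for an estimate that failed, since the ubiquitous gene Hnrnpa1 was at 0 in the YFP- library with VEGF-C. The labels call the YFP- cells neurons, but markers of glia were high there. The 10 oligodendrocyte markers summed to 7512 and 9059 FPKM in the YFP- libraries without and with VEGF-C, against 357 and 471 FPKM in the YFP+ ones. The 10 microglia markers summed to 291 and 737 FPKM, against 1.09 and 12.8 FPKM. The 10 neuron markers summed to 92.8 and 67.2 FPKM in YFP- cells, against 203 and 336 FPKM in YFP+ cells, a sum led by Tubb3 at 166 and 242 FPKM in YFP+ cells and 24.2 and 0.168 FPKM in YFP- cells. Single neuron markers did not all share that order. Of 7 at 1 FPKM or more, 1 was at least 2-fold higher and 3 were lower in YFP+ cells without VEGF-C (median log2 ratio -0.70). Of all genes, 30.1% were higher and 46.7% lower. With VEGF-C, 5 of 8 were higher and 1 lower, beside 47.0% and 27.6% of all genes. Map2 (7.76 and 37.1 FPKM against 6.77 and 1.95 FPKM), Prox1 and Rbfox3 were, like Tubb3, higher in YFP+ cells in both pairs. Without VEGF-C the log2 ratios of Map2 and Prox1 were only 0.17 and 0.38. Rbfox3 was below 1 FPKM in both of those libraries, at 0.397 FPKM against 0.150 FPKM. Other library scalings were not applied to the markers. Snap25 (21.1 and 39.9 FPKM against 6.28 and 20.4 FPKM) and Nefm (26.7 and 22.6 FPKM against 16.1 and 8.21 FPKM) were higher in YFP- cells in both pairs, and Slc17a7 did not exceed 0.00478 FPKM. The 10 astrocyte markers summed to 783 and 735 FPKM in YFP+ cells, against 15.8 and 6.54 FPKM. The 6 stem cell markers summed to 716 and 516 FPKM, against 125 and 233 FPKM, but single markers did not all share that order. Sox9 (445 and 191 FPKM against 5.58 and 1.12 FPKM) and Fabp7 were higher in YFP+ cells in both pairs. Hes5 was too, but with VEGF-C only at 0.228 FPKM against a listed 0. Nes was higher in YFP- cells in both pairs, Sox2 with VEGF-C and Vcam1 without it. Flt4, the reporter's own gene, was listed at 0 and at 2.01 FPKM in YFP+ cells, against 0.0584 and 0.348 FPKM.

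Across the members, Aldoa was the most abundant in all 4 libraries. Paired values are given for the untreated library first and then for the one with VEGF-C. The 17 enzymes from hexokinase to pyruvate kinase summed to 5335 and 4917 FPKM in YFP+ cells without and with VEGF-C, and to 2741 and 3795 FPKM in YFP- cells. Aldoa, the aldolase found in most tissues, stood at 1567 and 1585 FPKM in YFP+ cells without and with VEGF-C, against 1127 and 1880 FPKM in YFP- cells. Gapdh, glyceraldehyde-3-phosphate dehydrogenase, spanned 516 to 1298 FPKM, and Pkm, pyruvate kinase, 411 to 648 FPKM. Regulated entry steps were far lower: Hk1, the hexokinase of most brain cells, spanned 17.1 to 31.3 FPKM and Pfkfb3, which makes the activator of phosphofructokinase, 14.7 to 29.3 FPKM. Reads of some trunk genes may be shared with near-identical copies. Of the 75-base words in the transcripts of Pgk1, Gapdh, Eno1 and Pgam1, 67.5%, 55.5%, 44.3% and 40.6% also occur in transcripts of another annotated gene, mostly pseudogenes, so their estimates are uncertain. Pfkm, Pfkp, Aldoa, Tpi1, Gapdh, Pdha1, Ankrd37 and Mdh1 overlap exons of a gene on the opposite strand, which unstranded reads cannot tell apart.

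**Figure D1:**
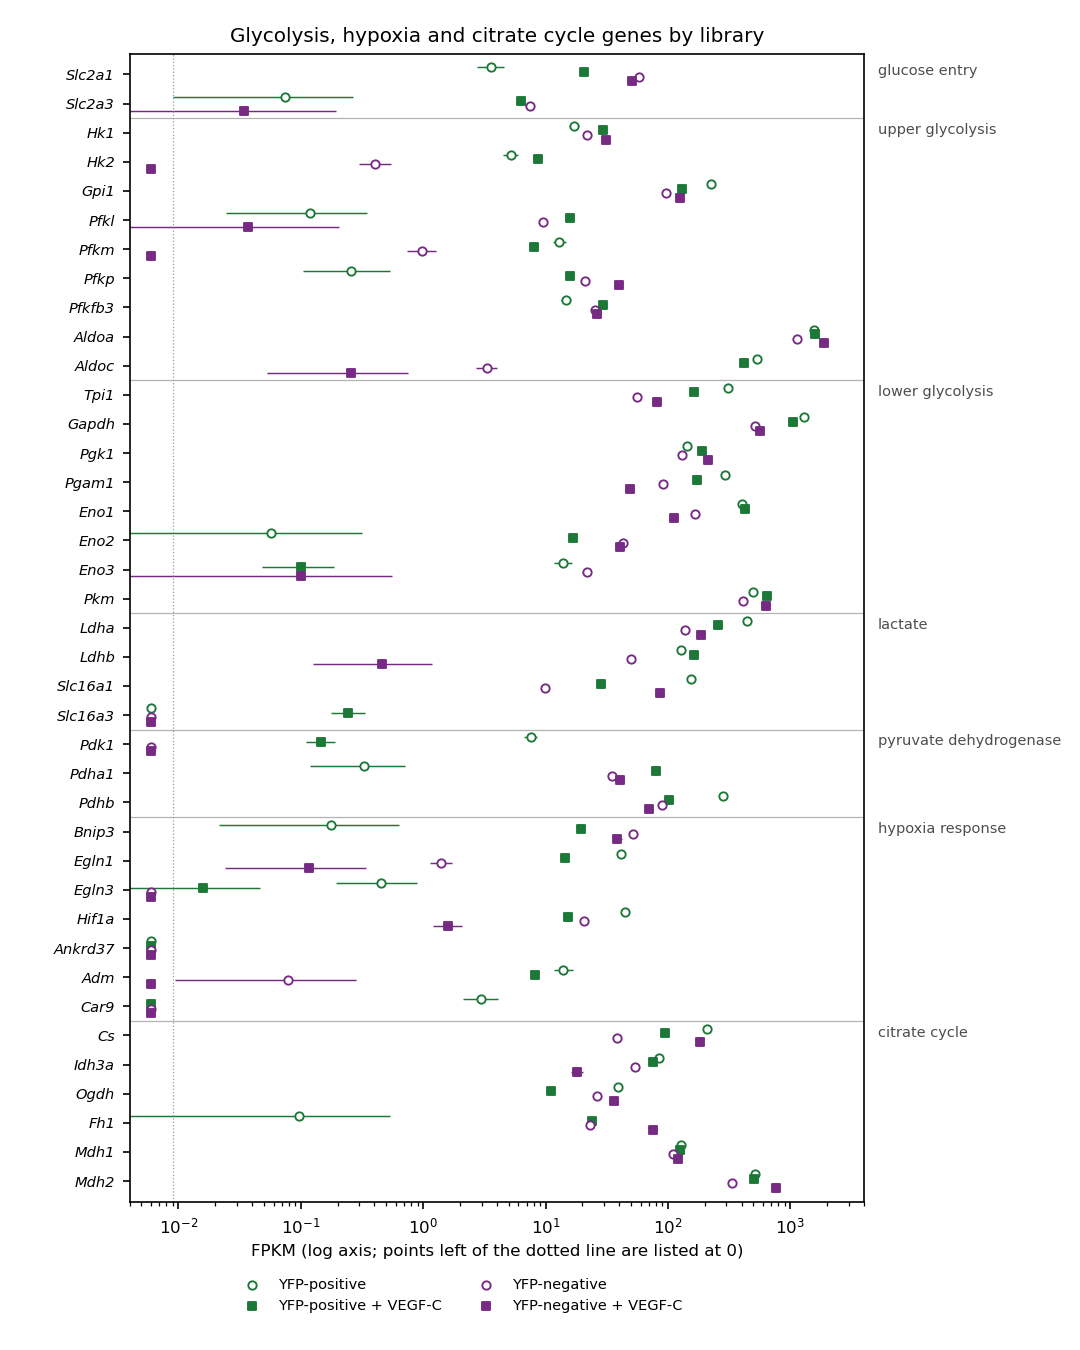
FPKM of each of the 39 genes (log axis) in the 4 libraries, grouped by role. Points are the deposited values, lines are 95% exact Poisson intervals of the fragments behind them (counting error only), and points left of the dotted line are listed at 0; Mdh1 has the narrowest range of the measured genes, while Aldoc, Hk2 and Egln1 are among those that separate the populations.

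YFP+ cells carried more message for aldolase C, 4 of the 8 lower glycolytic enzymes, both lactate dehydrogenase chains and the prolyl hydroxylase Egln1, and YFP- cells more of the glucose transporter Slc2a1, the platelet phosphofructokinase Pfkp, gamma enolase Eno2 and the mitophagy receptor Bnip3. Both YFP+ libraries stood above both YFP- libraries for 16 of the 36 members at 1 FPKM or more (44.4%), where 18.7% of all genes did. The reverse order held for 4 of 36 (11.1%), where 17.1% of all genes showed it. Of the 26 members whose mean was 20 FPKM or more, 11 (42.3%) were higher in both YFP+ libraries, beside 24.0% of genes at that level. A gap of at least 2-fold on the log2(FPKM + 1) scale between the populations, in every pairing, was found for Hk2, Pfkm, Aldoc, Eno1, Ldhb, Egln1 and Adm in favour of YFP+ cells (7 of 36, 19.4%, beside 7.16% of all genes). It was found for Slc2a1 and Eno2 in favour of YFP- cells (2 of 36, 5.56%, beside 6.59%). Under 3 other library scalings (upper quartile, equal FPKM totals, equal count totals), 15 of the 16 and all 4 kept their order, Mdh1 being the exception. Hk2, Pfkm, Aldoc, Egln1 and Adm also kept the 2-fold gap, while Eno1, Ldhb, Slc2a1 and Eno2 did not. However, Hk2, Pfkm, Adm and Pdk1 were below 1 FPKM in both YFP- libraries and passed the filter through YFP+ cells alone. They lacked any fragment in the YFP- library with VEGF-C, which no scaling can change. For these genes the scalings are therefore a weak check of order and gap. In pooled bulk RNA, fewer cells of a type and less RNA per cell cannot be told apart, and the part of the astrocyte, oligodendrocyte and microglia content given above in these differences was not tested.

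The same contrast can be read in the pairs of libraries of equal treatment. Differences are log2((FPKM + 1)/(FPKM + 1)), which understates those of low genes, for genes at 1 FPKM or more in either library of the pair. Without VEGF-C, 18 of 36 members (50.0%) were at least 2-fold higher in YFP+ cells, beside 30.1% of all 11265 genes, and 8 (22.2%) were at least 2-fold lower, beside 46.7%. The median of the members was 0.86 and that of all genes -0.66. With VEGF-C, 12 of 33 members (36.4%) were higher, beside 47.0% of 11229 genes, and 6 (18.2%) lower, beside 27.6%, with a median of 0.47 for the members and 0.69 for all genes. Where the mean was 20 FPKM or more, 12 of 26 members were higher without VEGF-C and 5 lower, beside 41.6% and 24.7%. Their median was 0.63, close to the 0.65 of all genes at that level. With VEGF-C, 6 were higher and 5 lower, beside 23.9% and 37.1%, with a median of 0.059 beside -0.46. Hk2, Pfkm, Aldoc, Pgam1, Eno1, Ldhb, Egln1, Hif1a and Adm were higher in both pairs, and Slc2a1, Pfkp, Eno2 and Fh1 lower in both. Each pair holds 1 gene-poor library, the YFP+ one without VEGF-C and the YFP- one with it. In the gene-rich libraries alone, YFP+ with VEGF-C against YFP- without it, 12 of 34 members were higher and 5 lower, beside 26.8% and 25.8% of all genes. Population and treatment differ together in that comparison. The share of higher members among those 2-fold apart depended on library scaling: 69.2% without VEGF-C became 73.3% after re-centring each pair on the median of all genes, 54.5% with upper-quartile scaling and 52.2% with equal count totals. With VEGF-C the 66.7% became 57.1%, 94.4% and 83.3%. The shares of all genes moved in the same directions. Without VEGF-C, 38.9%, 21.5% and 21.9% of all genes were higher under these scalings, and 36.2%, 53.0% and 54.8% lower. With it, 35.1%, 53.7% and 53.6% were higher and 37.6%, 19.7% and 22.0% lower. Upper-quartile scaling moved the median of all genes to -1.16 without and 1.19 with VEGF-C. The sign held under every scaling for 28 of 36 members without VEGF-C, the exceptions being Hk1, Aldoa, Pgk1, Eno3, Pkm, Ogdh, Mdh1 and Mdh2. With VEGF-C it held for 23 of 33, the exceptions being Hk1, Gpi1, Pfkfb3, Aldoa, Pgk1, Pkm, Ldha, Pdhb, Mdh1 and Mdh2.

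**Figure D2:**
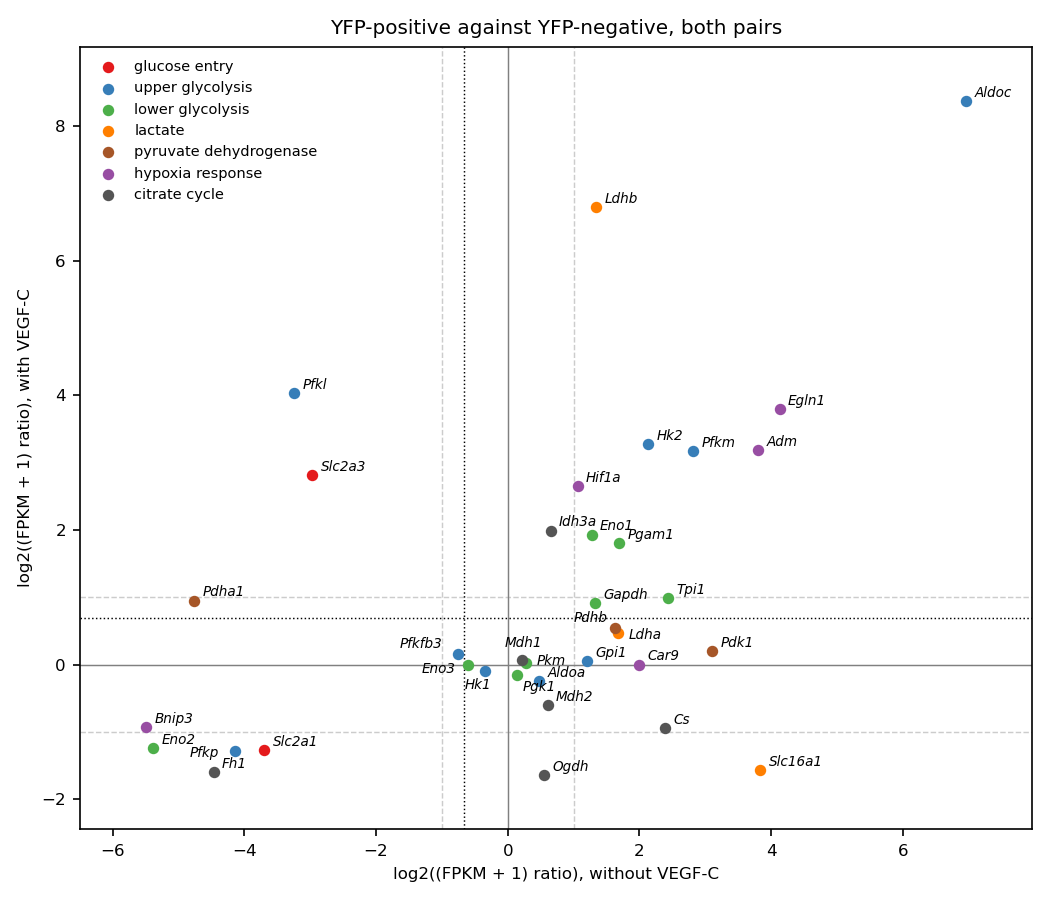
Difference of YFP+ and YFP- cells in the pair without VEGF-C (x axis) and in the pair with it (y axis), as log2 ratio of FPKM + 1, for the 36 genes at 1 FPKM or more in at least 1 of the 4 libraries. Dashed lines mark 2-fold and dotted lines the median of all genes (-0.66 and 0.69); Aldoc lies at the upper right, and Slc2a1, Pfkp, Eno2 and Fh1 at the lower left.

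Promoters are shown for 6 genes whose populations were separated by at least 2-fold: Aldoc, Egln1, Adm and Hk2, higher in YFP+ cells, then Slc2a1 and Eno2, higher in YFP- cells. HIF-1 is known to bind a core of ACGTG or GCGTG, and capitals mark these letters on either strand, so that CACGT and CACGC are matches on the opposite strand. Each run is the first RefSeq window of the gene on GRCm38.p6, read 5′ to 3′ on the gene's strand from 250 bases before to 50 bases after the start of transcription.
Aldoc, chr11:78322823-78323122, plus strand: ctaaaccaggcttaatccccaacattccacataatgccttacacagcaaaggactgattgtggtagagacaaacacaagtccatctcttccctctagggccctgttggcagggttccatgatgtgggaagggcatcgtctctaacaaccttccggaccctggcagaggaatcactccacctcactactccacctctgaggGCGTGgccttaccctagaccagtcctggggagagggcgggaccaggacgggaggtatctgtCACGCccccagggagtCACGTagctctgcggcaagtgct
Egln1, chr8:124949205-124949504, minus strand: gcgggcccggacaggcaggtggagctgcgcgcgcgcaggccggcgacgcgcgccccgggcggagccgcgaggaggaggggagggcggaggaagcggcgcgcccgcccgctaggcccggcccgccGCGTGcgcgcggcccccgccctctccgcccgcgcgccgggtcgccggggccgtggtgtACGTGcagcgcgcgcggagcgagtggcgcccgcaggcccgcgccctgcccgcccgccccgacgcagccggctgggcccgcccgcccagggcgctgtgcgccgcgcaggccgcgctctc
Adm, chr7:110627407-110627706, plus strand: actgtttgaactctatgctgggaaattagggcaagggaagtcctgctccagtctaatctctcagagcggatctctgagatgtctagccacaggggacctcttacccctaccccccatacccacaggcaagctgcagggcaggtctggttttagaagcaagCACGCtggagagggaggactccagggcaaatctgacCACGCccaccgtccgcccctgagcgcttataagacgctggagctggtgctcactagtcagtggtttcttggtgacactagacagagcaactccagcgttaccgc
Hk2, chr6:82774405-82774704, minus strand: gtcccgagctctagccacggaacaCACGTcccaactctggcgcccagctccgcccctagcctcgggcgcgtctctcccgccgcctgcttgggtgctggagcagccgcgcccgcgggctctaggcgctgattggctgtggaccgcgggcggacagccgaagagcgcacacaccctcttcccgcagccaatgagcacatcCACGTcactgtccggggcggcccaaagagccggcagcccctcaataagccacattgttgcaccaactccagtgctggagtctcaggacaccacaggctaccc
Slc2a1, chr4:119108495-119108794, plus strand: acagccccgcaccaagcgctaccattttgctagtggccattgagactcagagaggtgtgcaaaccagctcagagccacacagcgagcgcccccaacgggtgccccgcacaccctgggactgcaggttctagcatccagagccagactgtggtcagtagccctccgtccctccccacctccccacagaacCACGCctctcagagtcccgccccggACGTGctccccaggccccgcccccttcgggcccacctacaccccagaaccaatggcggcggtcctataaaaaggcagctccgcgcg
Eno2, chr6:124769624-124769923, minus strand: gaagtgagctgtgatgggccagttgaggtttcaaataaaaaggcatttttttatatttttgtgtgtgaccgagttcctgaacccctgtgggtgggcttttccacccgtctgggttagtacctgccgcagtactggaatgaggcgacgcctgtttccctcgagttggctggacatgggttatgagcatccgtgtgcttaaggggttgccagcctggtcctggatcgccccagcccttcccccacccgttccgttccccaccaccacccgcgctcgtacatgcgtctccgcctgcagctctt
Of these windows, Aldoc holds 1 ACGTG and 2 GCGTG, Egln1 1 of each, Adm 2 GCGTG, Hk2 2 ACGTG and Slc2a1 1 of each, while Eno2 holds neither. Matches in these 6 windows do not overlap each other, and CACGTG would count as 2 matches of ACGTG. Among all 55 windows of the 37 members with an entry, 46 (83.6%) hold at least 1 match, against 43.8% of the 32851 windows of all genes and 60.9% of those of genes at 1 FPKM or more. ACGTG alone stands in 56.4% of the member windows, 19.6% of all windows and 25.0% of those of genes at 1 FPKM or more. For genes at 20 FPKM or more in a library it was 28.1%, and 65.0% for either match. Windows of a gene can overlap, as do several of the 6 of Ogdh, so they are not separate counts. By gene, 33 of 37 members (89.2%) hold a match, beside 67.2% of genes at 1 FPKM or more and 71.4% at 20 FPKM or more. The median GC content was 61.0% for windows of members, 60.7% for genes at 1 FPKM or more and 61.0% at 20 FPKM or more. Genes of both directions hold the letters, and a match is not a site.

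Glucose enters neural cells through the transporters GLUT1, encoded by Slc2a1, and GLUT3, encoded by Slc2a3. Slc2a1 (chromosome 4, 119108711 to 119137983, plus strand, mm10) stood at 3.58 and 20.5 FPKM in YFP+ cells without and with VEGF-C, against 58.4 and 50.9 FPKM in YFP- cells. Both YFP- libraries thus lay above both YFP+ ones, 16.3-fold without VEGF-C (95% counting interval 12.7 to 21.4) and 2.48-fold with it (2.31 to 2.67). GLUT1 is also the glucose transporter of brain endothelium, whose 8 markers summed to 0.479 to 10.8 FPKM per library, with Tie1 and Ly6c1 listed at 0 in all 4. Slc2a3, the high-affinity transporter typical of neurons, stood at 0.0744 and 6.31 FPKM in YFP+ cells and at 7.42 and 0.0347 FPKM in YFP- cells. It was present in the gene-rich libraries and rested on 2 and 1 fragments in the gene-poor ones, so it gives no order of the populations.

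Among the enzymes that trap and prime the sugar, YFP+ cells held the hexokinase Hk2 and the muscle phosphofructokinase Pfkm. Hk2 (chromosome 6, 82725025 to 82774454, minus strand), the hexokinase isozyme of muscle and of dividing cells, was at 5.18 and 8.67 FPKM in YFP+ cells without and with VEGF-C, at 0.407 FPKM in YFP- cells and listed at 0 there with VEGF-C, where 3 fragments would be 0.074 FPKM. Without VEGF-C this was a 12.7-fold difference (9.18 to 17.9). Hk1 differed by less than 2-fold in both pairs, at 17.1 and 29.3 FPKM against 22.0 and 31.3 FPKM. Gpi1, phosphoglucose isomerase, was at 224 and 130 FPKM in YFP+ cells and at 96.4 and 125 FPKM in YFP- cells. Its populations nearly met with VEGF-C, at a ratio of 1.03 (0.992 to 1.08), and that sign reversed after re-centring.

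Phosphofructokinase, the committed step, was the 1 isozyme family whose leading gene by FPKM was not the same in all 4 libraries. Pfkm (chromosome 15, 98092589 to 98132451, plus strand) was at 13.0 and 8.05 FPKM in YFP+ cells, at 0.983 FPKM in YFP- cells and listed at 0 there with VEGF-C. Pfkp (chromosome 13, 6579768 to 6648777, minus strand) was at 0.259 and 15.8 FPKM in YFP+ cells and at 21.1 and 39.9 FPKM in YFP- cells. The liver gene Pfkl was at 0.119 and 16.0 FPKM in YFP+ cells and at 9.56 and 0.037 FPKM in YFP- cells. Pfkm was thus higher in both YFP+ libraries and Pfkp in both YFP- ones, while Pfkl was near 0 in both gene-poor libraries. By share of the summed FPKM of the family, Pfkm made up 97.2% and 20.2% in YFP+ cells without and with VEGF-C, against 3.10% in YFP- cells. Pfkp made up 66.7% and 99.9% in YFP- cells, and the YFP+ library with VEGF-C was split between Pfkl (40.1%), Pfkp (39.7%) and Pfkm. Pfkfb3 differed by less than 2-fold in both pairs.

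Aldoc had the largest log2 ratio of FPKM + 1 of any member in both pairs, 6.96 without and 8.37 with VEGF-C. Aldoc (chromosome 11, 78322968 to 78327781, plus strand), aldolase C, was at 536 and 416 FPKM in YFP+ cells without and with VEGF-C, against 3.30 and 0.256 FPKM in YFP- cells, where the last value rests on 3 fragments. The ratio was 162 without VEGF-C (134 to 198) and 1624 with it, the wide interval of 556 to 7874 reflecting those 3 fragments. Aldoa did not share this pattern, with ratios of 1.39 and 0.843, on either side of 1. Aldolase C therefore made up 25.5% of the aldolase FPKM in YFP+ cells (24.9% to 26.0%, exact binomial interval of fragments) and 20.8% with VEGF-C (20.6% to 21.0%). In YFP- cells it made up 0.292% (0.240% to 0.354%) and 0.0136% with VEGF-C (0.00281% to 0.0398%).

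**Figure D3:**
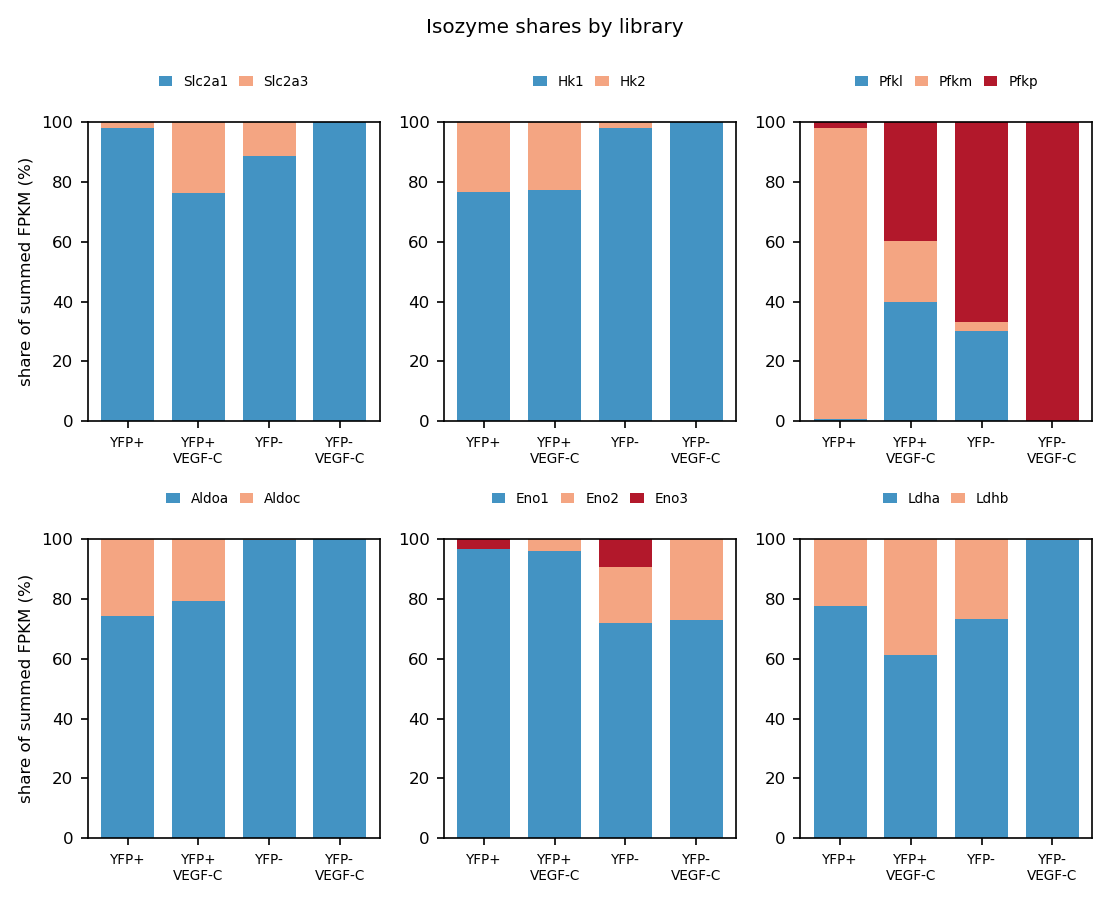
Share of the summed FPKM of 6 isozyme families taken by each gene (y axis, %) in the 4 libraries, 1 bar per library. The Hk2 and Aldoc portions are visible in both YFP+ bars, and the Eno2 portion is largest in the YFP- bars.

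Of the 8 enzymes in the lower part of the pathway, Tpi1, Gapdh, Pgam1 and Eno1 were higher in both YFP+ libraries. Tpi1, triose phosphate isomerase, was at 307 and 163 FPKM in YFP+ cells and at 55.9 and 81.3 FPKM in YFP- cells, 5.50-fold apart without VEGF-C (5.18 to 5.84) and just inside 2-fold with it, at a log2 ratio of 0.99. Gapdh was at 1298 and 1061 FPKM against 516 and 561 FPKM, 2.51-fold and 1.89-fold apart. Pgam1, phosphoglycerate mutase, was at 295 and 172 FPKM against 90.7 and 48.6 FPKM. These 3 genes had no overlap between populations. Pgk1, phosphoglycerate kinase, was at 143 and 191 FPKM in YFP+ and at 130 and 212 FPKM in YFP- cells, and Pkm at 500 and 648 FPKM against 411 and 637 FPKM. Neither of these was 2-fold apart in either pair, and the sign of both depended on scaling in both pairs.

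Enolase, which makes phosphoenolpyruvate, was mostly Eno1 in all 4 libraries. Eno1 (chromosome 4, 150236721 to 150248879, plus strand), alpha enolase, was at 402 and 428 FPKM in YFP+ cells without and with VEGF-C, against 166 and 111 FPKM in YFP- cells. Eno2 (chromosome 6, 124760053 to 124769673, minus strand) was at 0.0572 FPKM, from 1 fragment, and 16.7 FPKM in YFP+ cells, and at 43.2 and 41 FPKM in YFP- cells. Eno1 was higher in both YFP+ libraries and Eno2 in both YFP- ones. Eno2 made up 18.7% and 26.9% of the enolase FPKM in YFP- cells, and 0.0137% and 3.76% in YFP+ cells. Eno3, the beta enolase of muscle, was at 13.9 FPKM in YFP+ and 21.7 FPKM in YFP- cells without VEGF-C, and near 0.1 FPKM in both libraries with it, at 0.101 and 0.0996 FPKM from 10 and 1 fragments.

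Lactate dehydrogenase is a tetramer of A and B chains, of which the A chain favours lactate formation and the B chain its use. Ldha was at 439 and 258 FPKM in YFP+ cells without and with VEGF-C, against 137 and 186 FPKM in YFP- cells. Ldhb (chromosome 6, 142490249 to 142507957, minus strand) was at 127 and 162 FPKM in YFP+ cells, at 49.5 FPKM in YFP- cells and at 0.466 FPKM, from 4 fragments, there with VEGF-C. Both chains were higher in both YFP+ libraries, Ldha 3.20-fold and 1.39-fold (the latter sign turned after re-centring) and Ldhb 2.56-fold and 348-fold (136 to 1277). The B share of the summed FPKM was nonetheless close between populations without VEGF-C, at 22.4% (21.3% to 23.7%) and 26.6% (25.3% to 27.8%), with the YFP- share the larger. With VEGF-C it was 38.5% (38.1% to 39%) and 0.25% (0.0682% to 0.638%). About 12.6% of the words of Ldhb also stand in another annotated gene.

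Monocarboxylate transporters carry lactate across the membrane. Slc16a1, which encodes MCT1, was at 154 and 28.3 FPKM in YFP+ cells without and with VEGF-C, against 9.90 and 86.0 FPKM in YFP- cells. It was highest in the gene-poor libraries of both populations, 15.6-fold higher in YFP+ cells without VEGF-C (14.5 to 16.8) and 3.04-fold lower with it (2.91 to 3.17). Slc16a3, which encodes the lactate exporter MCT4, was at 0.245 FPKM in YFP+ cells with VEGF-C and listed at 0 in the other libraries, where 3 fragments would be 0.0639 to 0.191 FPKM.

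At the pyruvate dehydrogenase gate, Pdk1, the kinase that shuts the complex off and a known HIF-1 target, measured 7.58 FPKM in the YFP+ library and 0.147 FPKM after VEGF-C, with a listed 0 in both YFP- libraries. Pdhb, the beta subunit of its first enzyme, was at 283 and 103 FPKM in YFP+ cells and at 90.2 and 70.4 FPKM in YFP- cells, higher in both YFP+ libraries though its sign with VEGF-C turned after re-centring. Its partner Pdha1, the alpha subunit, was at 0.326 and 79.9 FPKM in YFP+ cells and at 35.0 and 40.8 FPKM in YFP- cells. The subunits form one enzyme, yet in the YFP+ library Pdha1 rested on 6 fragments and took 0.115% of their summed FPKM (0.0423% to 0.251%), against 28.0% to 43.7% in the other libraries.

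Genes of the oxygen response did not share one direction. Egln1 (chromosome 8, 124908587 to 124949324, minus strand), the prolyl hydroxylase PHD2 that is the main oxygen sensor for HIF, was at 41.2 and 14.5 FPKM in YFP+ cells without and with VEGF-C, against 1.41 and 0.117 FPKM in YFP- cells. Adm (chromosome 7, 110627661 to 110629820, plus strand), the vasodilator peptide adrenomedullin, was at 14.0 and 8.14 FPKM in YFP+ cells, at 0.0781 FPKM in YFP- cells and listed at 0 there with VEGF-C. Both genes were higher in both YFP+ libraries, Egln1 by 29.2-fold (23.8 to 36.2) and 123-fold (42.1 to 598). Hif1a, the regulated subunit of HIF-1, was at 44.5 and 15.3 FPKM in YFP+ cells and at 20.8 and 1.60 FPKM in YFP- cells. It was higher in YFP+ cells within each pair, but its populations overlapped, since the untreated YFP- library lay above the treated YFP+ one.

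Bnip3, a HIF target that recruits autophagy to mitochondria, went the other way. Bnip3 (chromosome 7, 138890836 to 138909519, minus strand) was at 0.177 FPKM, from 2 fragments, and 19.6 FPKM in YFP+ cells, and at 51.9 and 38.4 FPKM in YFP- cells. Both YFP- libraries were above both YFP+ ones, by less than 2-fold on the log2 scale in the pair with VEGF-C. The remaining response genes were scarce. Car9, a carbonic anhydrase often used as a marker of hypoxia, was at 2.99 FPKM in the YFP+ library from 38 fragments and listed at 0 in the others. Egln3 stayed at or below 0.45 FPKM, and Ankrd37 was listed at 0 in all 4 libraries.

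Citrate cycle genes had no common direction between the populations. Without VEGF-C, 1 of the 6 was at least 2-fold higher in YFP+ cells and 1 lower, beside 30.1% and 46.7% of all genes, with a median of 0.58 beside -0.66. With VEGF-C, 1 was higher and 2 were lower, beside 47.0% and 27.6%, with a median of -0.77 beside 0.69. Mdh1, the cytosolic malate dehydrogenase, had the narrowest range of the 36 members at 1 FPKM or more, at 129 and 126 FPKM in YFP+ and 111 and 120 FPKM in YFP- cells. Mdh2, its mitochondrial counterpart, was at 511 and 508 FPKM in YFP+ cells and at 336 and 771 FPKM in YFP- cells, so the populations overlapped. Idh3a, a subunit of isocitrate dehydrogenase, was at 84.8 and 75.0 FPKM against 53.5 and 18.1 FPKM, higher in both YFP+ libraries. Cs, citrate synthase, was at 207 and 95.2 FPKM in YFP+ cells and at 38.7 and 184 FPKM in YFP- cells. Like Slc16a1, it was highest in the gene-poor library of each population. Ogdh, oxoglutarate dehydrogenase, was at 39 and 11.0 FPKM against 26.3 and 36.6 FPKM. Fh1, fumarate hydratase, was at 0.0961 FPKM, from 1 fragment, and 24.1 FPKM in YFP+ cells, and at 23.2 and 75.0 FPKM in YFP- cells. Its level in the gene-rich libraries was nearly equal.

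The study also asked what VEGF-C does to these cells. By deposited FPKM, most trunk enzymes of glycolysis were within 2-fold of their untreated level. Each of the next comparisons shares its libraries with the population pairs above and is not independent of them. In YFP+ cells, 8 of 36 members (22.2%) were at least 2-fold higher with VEGF-C, beside 45.5% of all genes, and 9 (25.0%) were lower, beside 26.3%, with a median of -0.10 beside 0.59 for all genes. In YFP- cells, 4 of 31 (12.9%) were higher, beside 25.3%, and 8 (25.8%) lower, beside 45.3%, with a median of 0.11 beside -0.54. At a mean of 20 FPKM or more, the median of all genes turned sign in both populations. In YFP+ cells it was -0.56, beside -0.018 for the members, and in YFP- cells 0.54, beside 0.17. Hk1, Gpi1, Pfkfb3, Aldoa, Tpi1, Gapdh, Pgk1, Pgam1, Eno1, Pkm, Ldha and Mdh1 were within 2-fold in both populations by deposited FPKM. Of these, only Gapdh and Mdh1 stayed so under every scaling. In YFP+ cells log2 ratios reached -1.50 for Tpi1, -1.35 for Ldha and 1.61 for Pfkfb3. In YFP- cells they reached 1.28 for Aldoa and -1.20 for Eno1. Among genes 2-fold apart, the share that was higher with VEGF-C was 47.1% in YFP+ cells, and 34.8%, 73.7% and 70.6% after re-centring, with upper-quartile scaling and with equal count totals. In YFP- cells it was 33.3%, and 64.7%, 20% and 20% under the same scalings, so no common direction of the list can be read. All genes moved in the same directions under these scalings. In YFP+ cells 34.4%, 52.7% and 54.0% of them were higher and 36.8%, 16.4% and 17.5% lower. In YFP- cells 35.9%, 16.1% and 18.0% were higher and 35.9%, 51.7% and 52.6% lower. The sign held under every scaling for 26 of 36 members in YFP+ cells and for 17 of 31 in YFP- cells.

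In YFP+ cells the members higher with VEGF-C were Slc2a1, Slc2a3, Pfkl, Pfkp, Eno2, Pdha1, Bnip3 and Fh1. All but Slc2a1 rested on fewer than 10 fragments in the untreated library, which is gene-poor. Slc2a1, from 61 fragments there, was 5.74-fold higher with VEGF-C (4.46 to 7.52). The members lower with VEGF-C were Eno3, Slc16a1, Pdk1, Pdhb, Egln1, Hif1a, Car9, Cs and Ogdh. Under every scaling Eno3, Slc16a1, Pdk1, Car9 and Ogdh stayed at least 2-fold lower, while Pdhb, Egln1, Hif1a and Cs did not. Pdk1 was 51.6-fold lower (38.5 to 70.3), Slc16a1 5.45-fold lower (5.26 to 5.65), Ogdh 3.53-fold lower (3.34 to 3.72), Hif1a 2.90-fold lower (2.74 to 3.08) and Egln1 2.85-fold lower (2.65 to 3.05). In the library with VEGF-C, Pdk1 rested on 55 fragments, Eno3 on 10 and Car9 on a listed 0.

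In YFP- cells, where the library with VEGF-C is the gene-poor one, Slc16a1, Cs, Fh1 and Mdh2 were at least 2-fold higher with VEGF-C. Slc16a1 was 8.69-fold higher (8.06 to 9.38), Cs 4.76-fold (4.52 to 5.02), Fh1 3.23-fold (2.92 to 3.57) and Mdh2 2.30-fold (2.22 to 2.37). The lower members were Slc2a3, Pfkl, Aldoc, Eno3, Ldhb, Egln1, Hif1a and Idh3a, of which only Hif1a and Idh3a had more than 10 fragments in the library with VEGF-C. Hif1a was 13.0-fold lower (9.94 to 17.2) and Idh3a 2.95-fold lower (2.62 to 3.33). Mdh2, Egln1 and Idh3a did not stay 2-fold apart under every scaling, while the other members named here did. Fh1 was higher with VEGF-C in both populations, and Eno3, Egln1 and Hif1a were lower in both.

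**Figure D4:**
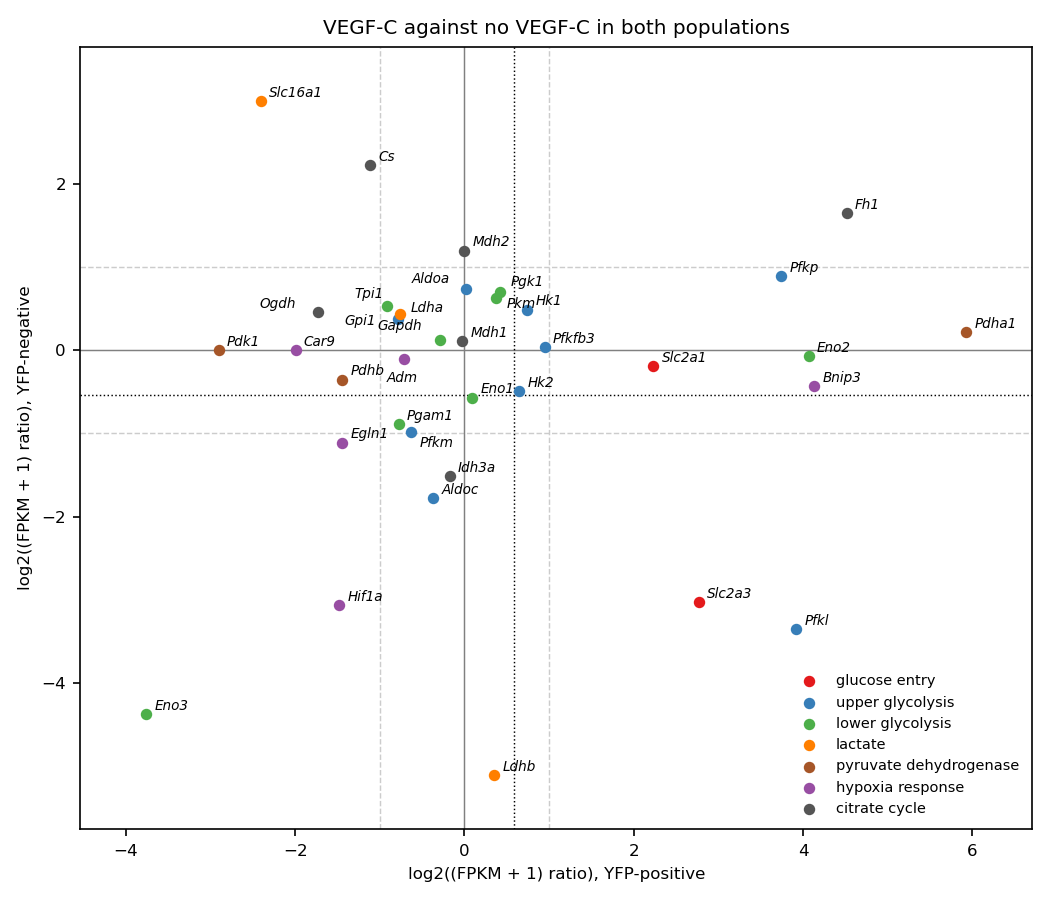
Difference with and without VEGF-C in YFP+ cells (x axis) and YFP- cells (y axis), as log2 ratio of FPKM + 1, for the 36 genes at 1 FPKM or more in at least 1 of the 4 libraries. Dashed lines mark 2-fold and dotted lines the median of all genes (0.59 and -0.54); most trunk enzymes gather near the centre, Slc16a1 lies at the upper left and Slc2a3 and Pfkl at the lower right.

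Neighbouring steps of the same pathways were read from other lists, whose counts of genes at least 2-fold apart stand beside 30.1% higher and 46.7% lower for all genes without VEGF-C, and 47.0% higher and 27.6% lower with it. These shares swing between the pairs in the direction in which most of the counts below do, and nothing particular to a list is read from them. Pyruvate import and the remaining pyruvate dehydrogenase genes were higher in YFP+ cells for 6 of 11 genes and lower for 3 without VEGF-C, and higher for 7 of 12 and lower for 4 with it. The phosphatases Pdp1 and Pdp2, which switch the complex back on, were at 43.6 and 39.6 FPKM in YFP+ cells against 6.99 and 7.87 FPKM, and the treated libraries held 13.1 and 20.4 FPKM against a listed 0 and 0.0395 FPKM. Mpc2, a subunit of the mitochondrial pyruvate carrier, was at 0.408 and 53.2 FPKM in YFP+ cells and at 96.1 and 267 FPKM in YFP- cells. Glycogen genes were higher in YFP+ cells for 5 of 8 and lower for 2, and with VEGF-C higher for 4 of 8 and lower for 2. Gbe1, the branching enzyme, was at 51.9 and 29.3 FPKM in YFP+ cells and at 6.08 and 0.279 FPKM in YFP- cells. Ugp2, which makes UDP-glucose, was at 41.2 and 25.3 FPKM against 14.4 FPKM and a listed 0. Pygb, the brain glycogen phosphorylase, was at 0.308 and 27.5 FPKM in YFP+ cells and at 4.05 and 0.0358 FPKM in YFP- cells, so its order turned between the pairs. Glycogen in the brain is known to be kept mainly by astrocytes.

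The pentose phosphate list had 1 of 8 genes higher in YFP+ cells and 3 lower without VEGF-C, and 2 of 7 higher and 2 lower with it. G6pdx, its entry enzyme, was at 4.20 and 45.1 FPKM in YFP+ cells and at 52.0 and 128 FPKM in YFP- cells. Other hypoxia genes were higher in YFP+ cells for 6 of 25 and lower for 13 without VEGF-C, and higher for 10 and lower for 7 with it. Ndrg1, a stress gene also used by myelinating cells, was at 12.9 and 1.61 FPKM in YFP+ cells and at 102 and 230 FPKM in YFP- cells. Plod2, a collagen lysyl hydroxylase, was at 0.365 and 9.13 FPKM against 10.2 and 66.3 FPKM. Plod2 was nearly equal in the gene-rich libraries, at 9.13 and 10.2 FPKM. Ndrg1, Plod2 and Bnip3 were lower in YFP+ cells within each pair, while Egln1 and Adm were higher. Other genes of this list also went the way of Egln1 and Adm. Vegfa was at 75.9 and 10.9 FPKM in YFP+ cells against 10.8 and 7.82 FPKM. Hilpda was at 35.7 and 6.54 FPKM against 15.6 FPKM and a listed 0. P4ha2 was at 16.2 and 1.85 FPKM in YFP+ cells and listed at 0 in YFP- cells. Other citrate cycle genes were higher for 6 of 16 and lower for 5 without VEGF-C, and higher for 9 and lower for 1 with it. Sdhd, a membrane anchor of succinate dehydrogenase, was at 1.63 and 104 FPKM in YFP+ cells and at 91.8 and 14.3 FPKM in YFP- cells, low in both gene-poor libraries. The remaining glycolytic genes were higher for 0 of 9 and lower for 6 without VEGF-C and 3 of 7 each way with it, and the shuttle genes higher for 2 of 8 and lower for 1, then 4 and 1. Bpgm, bisphosphoglycerate mutase, was at 0.0741 and 21.0 FPKM in YFP+ cells and at 26.8 FPKM and a listed 0 in YFP- cells. Got1, the cytosolic aspartate transaminase of the malate-aspartate shuttle, was at 123 and 37.7 FPKM in YFP+ cells and at 47.6 and 1.80 FPKM in YFP- cells.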

How the data were processed

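RNA was measured in 4 libraries, 1 per group, made with the SMARTer Ultra Low kit and read as pairs of 75 bp, per the labels' protocols. Reads were mapped to mm10 with TopHat2 2.0.9 (Bowtie2 2.1.0, SAMtools 0.1.18), unstranded, and quantified with Cuffdiff of Cufflinks 2.1.1, per the submitters' processing notes. The authors deposited FPKM, scaled by transcript length and library, and normalized counts per gene, treated here as a signal because the values are not whole numbers. No source used here names the annotation release.

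Of 23361 rows, 27 whose symbols had become dates were left out. In each library 99.0% to 99.6% of low normalized counts were whole multiples of 1 step (tolerance 0.05 steps), and dividing by it gave the fragments behind a value. Intervals are 95% exact Poisson or binomial ones on these fragments, a listed 0 allows up to 3 fragments, and both cover counting error only, since amplified fragments are not independent molecules. The pseudocount was 1 FPKM, a gene entered a comparison at 1 FPKM or more in either library, and 2-fold was the limit for counting it. With 1 library per group no test was run. The calculation was tested on simulated data. Positions come from GENCODE M21 on the same build. Promoters come from RefSeq (GRCm38.p6). Python 3.11.15, pandas 2.3.3, NumPy 2.4.6 and SciPy 1.17.1 were used.

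The members, lists, isozyme families, markers and motifs were chosen with earlier results of these data known. All 39 members are accounted for, and of each other list the text takes its genes from the 3 with the largest difference in either population pair among those at 20 FPKM or more in a library. Vegfa, Hilpda and P4ha2 were named in addition, to show the other direction in the hypoxia list. Alternatives were the pseudocount, the filter, library scaling, the normalized counts, genes at 0 and genes counted as pseudogene-rich. The last were set by name as Gapdh, Aldoa, Eno1, Ldha, Pgk1, Pgam1, Tpi1 and Pkm, and not by the shared words. Aldoa, Tpi1 and Ldha share only 0.708%, 2.25% and 3.11% of words with other genes. Pdhb, Bnip3 and Ldhb, which were kept, share 19.9%, 14.4% and 12.6%. Gene-rich libraries alone, and the order of populations under other scalings, were added after seeing the data.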

Additional observations from a re-analysis of the deposited data

Results flagged for a closer look

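A set of 4 genes, Slc2a3, Pfkl, Slc16a1 and Cs, were at least 2-fold apart in opposite directions with VEGF-C in the 2 populations, or in opposite directions between populations in the 2 VEGF-C states. These opposite directions were not tested, as each group has 1 library. With VEGF-C, Slc2a3 had a log2 ratio of 2.77 in YFP+ and -3.02 in YFP- cells, and Pfkl 3.92 and -3.35. Slc16a1 had -2.41 and 3.00, and Cs -1.11 and 2.22. Between populations, YFP+ over YFP-, Slc2a3 had -2.97 without and 2.82 with VEGF-C, Pfkl -3.24 and 4.03, and Slc16a1 3.83 and -1.57. Slc2a3 and Pfkl were near 0 in both gene-poor libraries, from 1 to 3 fragments, while Slc16a1 and Cs were highest in those libraries, from 2786 to 4655 fragments. The part of that library difference in the opposite directions was not tested.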

How the results depend on the processing

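No paired analysis was possible because each group has 1 library, and no replicate could be left out. The sets were steady under a pseudocount of 0.1 FPKM and dependent on library scaling. For the population pair without VEGF-C, the median log2 ratio of the members was 0.56 with a pseudocount of 10 FPKM, 0.60 with no filter, 0.63 where the mean was 20 FPKM or more, without genes listed at 0 and without those with many pseudogenes, 1.52 after re-centring, 0.23 with upper-quartile scaling and with equal count totals, and 0.58 in the gene-rich libraries alone. The count of lower members was 5 at a mean of at least 20 FPKM and in the gene-rich libraries. With VEGF-C the median was 0.15 with no filter and without pseudogene-rich members, 0.059 at a mean of at least 20 FPKM, -0.22 after re-centring, 1.12 with upper-quartile scaling, 0.93 with equal count totals, 0.11 without genes listed at 0 and 0.58 in the gene-rich libraries. There, 6 members were higher at a mean of at least 20 FPKM, and 3 were lower with a pseudocount of 10 FPKM, 3 with equal count totals and 1 with upper-quartile scaling. For VEGF-C in YFP+ cells the median was -0.69 after re-centring, 0.55 with upper-quartile scaling and 0.49 with equal count totals. In that comparison 14 were higher with upper-quartile scaling, 5 were higher and 5 lower at a mean of at least 20 FPKM, 5 were lower with equal count totals or upper-quartile scaling, and 15 after re-centring. For VEGF-C in YFP- cells the median was 0.65 after re-centring, -0.54 with upper-quartile scaling, -0.46 with equal count totals and -0.075 without pseudogene-rich members. Here 11 were higher after re-centring, and 4 were lower with a pseudocount of 10 FPKM and at a mean of at least 20 FPKM. The shares of all genes moved with library scaling too, as given above. The cause of these shifts was not tested. The gene-rich libraries, YFP+ with VEGF-C and YFP- without it, differ in treatment as well as population. Their contrast is not that of either pair. In the gene-rich libraries alone, the sign was compared for members at least 2-fold apart in a pair. Of those without VEGF-C it reversed for Pfkl (0.68), Pdha1 (1.17), Hif1a (-0.41) and Fh1 (0.049). Of those with VEGF-C it reversed for Slc2a3 (-0.20), Slc16a1 (1.43), Hif1a (-0.41) and Fh1 (0.049). Some members less than 2-fold apart turned as well and are not listed in full. Ogdh, higher in YFP+ cells without VEGF-C, was at 11.0 FPKM there against 26.3 FPKM. Cs, lower in YFP+ cells with VEGF-C, was at 95.2 FPKM there against 38.7 FPKM. Of 73 member differences of 2-fold or more over the 4 comparisons, 73 stayed so with a pseudocount of 0.1 FPKM, 53 with 10 FPKM, 71 after re-centring, 57 with upper-quartile scaling and 59 with equal count totals, and 0 changed sign under these. Of 10 gene sets (9 isozyme families and the subunit pair of Pdha1 and Pdhb), 9 had the same leading gene in all 4 libraries by FPKM and 8 by normalized counts, where the lead within the subunit pair varied. In the gene-poor libraries, values near 0 limit what depth can show.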
